A study of Rattus norvegicus with 18 samples.

Results

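The peaks described here are sites of 5-hydroxymethylcytosine (5hmC) that the study's peak list assigns to genes that do not code for protein: long noncoding RNAs, microRNAs, small structural RNAs and pseudogenes. They are all rows of that list with a gene identifier, a gene biotype other than protein_coding, a chromosome from 1 to 20 and a span under 3000 bases. This rule kept 6746 of 215951 peaks, at 3182 genes of 16 biotypes. LincRNA genes, the long intergenic noncoding RNAs, held 3737 of the peaks. The label processed_transcript covered 806, microRNA 532, small nuclear RNA 449, small nucleolar RNA 412 and pseudogene 232. Below these came misc_RNA (165), processed_pseudogene (146), rRNA (113), antisense (52), unprocessed_pseudogene (40), TEC (17), scaRNA (17), ribozyme (15), sense_intronic (8) and transcribed_processed_pseudogene (5). At the limit of width, 65 noncoding peaks on these chromosomes were too wide. A 7SK peak of 2978 bases (log2 change -0.26) and an AABR07006724.1 peak of 2984 bases (-0.18) lay just inside, and a U6 peak of 3007 bases (0.45) and an AC096311.1 peak of 3010 bases (-0.14) just outside.

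The study cultured primary rat Schwann cells, the myelinating glia of peripheral nerve, to passage 3 with vitamin C (here VitC) or without it (control). Each group has 3 RNA libraries, 3 libraries of DNA precipitated with an antibody to 5hmC (hMeDIP) and 3 genomic input libraries, 18 libraries in all. The sources used here do not give the strain, age, number of animals, dose or duration, nor whether libraries of a group came from separate cultures, so p-values measure only the spread between these libraries, which may be technical. No genotype or other agent is named, and both groups are otherwise labelled alike.

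Vitamin C keeps the iron of TET dioxygenases in the reduced form that these enzymes need. TET enzymes oxidise 5-methylcytosine to 5hmC, an intermediate in DNA demethylation that is also a stable mark of enhancers and gene bodies in many tissues. Long noncoding RNAs act in the nucleus and cytoplasm by varied routes, microRNAs pair through their seed with messenger RNAs and lower their output, and small nuclear and nucleolar RNAs serve in splicing and in the modification of other RNAs. Pseudogenes are copies of genes, many of which have lost the ability to make a protein. MicroRNAs are processed from longer transcripts, so DNA beside a microRNA gene can belong to its host gene or primary transcript.

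The mature microRNAs at the loci described below are given first, with the seed (bases 2 to 8) in capitals, because the seed decides which messages a microRNA pairs with. All sequences are from RefSeq (assembly GRCr8) and were matched by gene symbol, which worked for 83 of the 403 microRNA genes with a peak. The first set belongs to genes with a peak that was higher with VitC.
miR-3549: aUCUUGCCcgcaaagaccc
miR-193b-3p: aACUGGCCcacaaaguccc
miR-365-3p: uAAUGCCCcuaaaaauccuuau
miR-34a-5p: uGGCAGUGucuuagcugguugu
miR-24-3p: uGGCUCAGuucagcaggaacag
miR-107-3p: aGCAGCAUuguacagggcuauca
miR-128-3p: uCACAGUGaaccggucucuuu
miR-148b-3p: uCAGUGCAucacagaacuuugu
miR-22-3p: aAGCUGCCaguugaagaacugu
miR-615: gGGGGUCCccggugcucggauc
miR-196a-5p: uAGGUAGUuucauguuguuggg
miR-10a-5p: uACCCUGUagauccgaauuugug
let-7b-5p: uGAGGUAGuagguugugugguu
miR-3596a: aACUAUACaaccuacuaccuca
miR-3065-3p: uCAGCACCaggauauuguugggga

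The next set belongs to genes with a peak that was lower with VitC, apart from miR-152-3p, which is shown because it shares its seed with miR-148b-3p.
miR-455-3p: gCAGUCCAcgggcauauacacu
miR-218a-5p: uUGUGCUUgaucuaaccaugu
miR-138-5p: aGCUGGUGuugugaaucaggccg
miR-493-3p: uGAAGGUCuacugugugccag
miR-152-3p: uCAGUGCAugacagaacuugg

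Among the 83 genes, 4 seeds occurred at more than 1 gene. CACAGUG and GGGGCCG are both shared by Mir128-1 and Mir128-2, CAGUGCA by Mir148b and Mir152, and GCUGGUG by Mir138-1 and Mir138-2. Several entries are named for the strand opposite a better known microRNA. At 12 of the genes the hairpin overlaps that of another microRNA gene on the other strand. The mature miR-3596a above is complementary over 22 bases to the let-7a made by Mirlet7a-2, and miR-3549, which RefSeq lists under the symbol Mir193a, is complementary over 19 bases to a mature product of the neighbour Mir193. A peak cannot be assigned to either strand of such a pair, since both genes occupy the same DNA.

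Reads counted in peaks were 24020306 to 39899445 per hMeDIP library and 7201638 to 9521037 per input library, and reads counted in genes were 23381814 to 33173282 per RNA library. Peaks held 30.8% to 35.7% of counted hMeDIP reads in control and 40.8% to 43.9% in VitC libraries, against 8.43% to 8.65% in input. Replicates 1 and 3 of each hMeDIP group differed by no more than the sampling noise (chi-square per degree of freedom 0.963 for control and 0.896 for VitC), so each such pair was counted as 1 sample. Means and SDs of hMeDIP levels are therefore over n = 2, although the level of each of the 6 libraries is given. Levels are CPM, the reads of a peak relative to all reads in peaks of its library, after scaling by TMM factors, and a change is log2 of VitC over control. In RNA, VitC replicate 1 stood apart, with 27.4 and 38.3 by the same measure against the other treated libraries, which had 5.26 between them.

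The peak list runs through the chromosomes 2 times. Of the noncoding peaks, 2070 stand in its first pass and 4676 in its second, 30.7% in the first against 31.7% of all peaks. The sources used here do not say how the passes were made. The direction of change followed the pass closely, so the counts of the main classes are also given within each pass.

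In hMeDIP, 2397 noncoding peaks were higher with VitC and 2405 were lower (35.5% and 35.7%; adjusted p under 0.05). Over all 215951 peaks the shares were 36.9% higher and 36.3% lower, so the noncoding peaks were called about as often as any peak. Peaks of protein-coding genes within the same limits were more often higher (44.7%) and less often lower (28.1%), which was not tested as a difference. The median log2 change was 0.04 over the noncoding peaks, 0.05 over all peaks and 0.18 over the peaks of coding genes. In the first pass, 65 noncoding peaks were higher and 1800 lower (3.14% and 87.0%, against 2.89% and 87.1% of all peaks there), with a median of -1.0. In the second pass, 2332 were higher and 605 lower (49.9% and 12.9%, against 52.6% and 12.8%), with a median of 0.27. A log2 change of at least 1 was found in 193 of the higher and 1053 of the lower noncoding peaks (2.86% and 15.6% of them, against 2.97% and 15.9% of all peaks). DESeq2 called 1272 noncoding peaks higher and 2088 lower, beside 20.2% and 31.8% of all peaks.

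**Figure D1:**
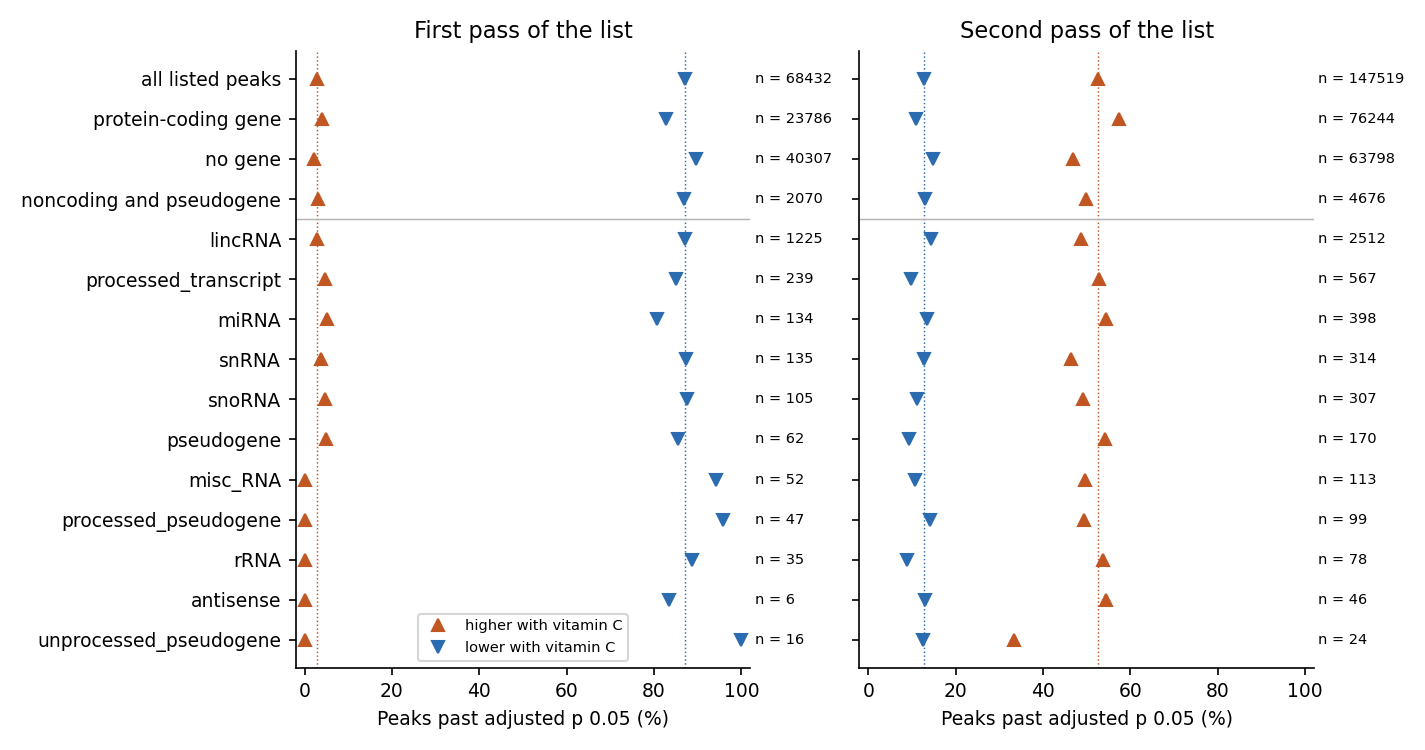
Share of peaks (percent, horizontal axis) higher (triangles up) or lower (triangles down) with VitC in hMeDIP, by class of peak, in the first (left) and second (right) pass of the list. Dotted lines mark all listed peaks; each class shown had more lower than higher peaks in the first pass and more higher than lower in the second, as the noncoding peaks did (87.0% lower and 49.9% higher).

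The split between rises and falls depended on the scaling. Scaling by all counted reads, in and outside peaks, gave 4080 higher and 1532 lower noncoding peaks, beside 60.1% and 23.6% of all peaks. That scaling moved the median log2 change of all peaks from 0.05 to 0.49 and that of the noncoding peaks from 0.04 to 0.48. Noncoding peaks took 0.973%, 0.948% and 1.1% of all counted reads in the control hMeDIP libraries and 1.25%, 1.33% and 1.24% in the VitC libraries. The groups did not overlap in this share. As a share of the reads in peaks alone, the noncoding peaks stood at 3.07% to 3.08% in control and 3.03% in VitC libraries.

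Fold over input is the ratio of a peak's share of all counted hMeDIP reads to its share of all counted input reads. The median noncoding peak went from 3.57-fold over input in control to 4.40-fold in VitC cells. The median went from 4.45-fold to 3.14-fold in the first pass and from 3.02-fold to 4.82-fold in the second. In a test of hMeDIP against input, 1324 noncoding peaks rose and 1873 fell (19.6% and 27.8%, against 20.8% and 28.3% of all peaks). Input alone gave 0 calls by edgeR's quasi-likelihood test, and 387 of 6743 noncoding peaks had an unadjusted p under 0.05 (5.74%, against 4.86% of all peaks).

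By position in the gene, the 2844 peaks in the gene body were 34.7% higher and 36.8% lower, and the 1284 labelled Promoter1k 36.8% and 35.0%. The 435 labelled ProximalPromoter, the class nearest to the start site, were 43.0% higher and 24.1% lower, with a median of 0.16. Coding peaks with that last label were 49.1% higher and 22.1% lower. Peaks of the same gene often went both ways. Of 818 noncoding genes with several called peaks, 192 had only higher peaks, 192 only lower ones and 434 both (53.1%). In 218 of the mixed genes the directions split exactly by pass. Mixed directions were more frequent at protein-coding genes, at 6150 of 8669 (70.9%), 2333 of them split exactly by pass. This difference was not tested.

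LincRNA peaks, the largest class, were 33.6% higher and 38.2% lower (1256 and 1427 of 3737, median -0.01). In the first pass 34 were higher and 1067 lower of 1225 (2.78% and 87.1%, against 2.89% and 87.1% of all peaks there). In the second 1222 were higher and 360 lower of 2512 (48.6% and 14.3%, against 52.6% and 12.8%). Most noncoding genes had a single peak (1962 of 3182), but 68 genes had 10 or more and together held 1502 peaks. Pvt1 (ENSRNOG00000062170, chromosome 7), a long noncoding RNA gene beside Myc, is one of them, with 83 peaks along 219 kb of listed transcript, or 37.8 per 100 kb. Of these, 54 rose and 11 fell, the median log2 change was 0.39 and the range -1.14 to 1.18. The 72 Pvt1 peaks of the second pass held 52 of the rises and 5 of the falls (median 0.43), and the 11 of the first pass held 6 falls (median -0.38).

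The Pvt1 peak at chromosome 7, 102682567 to 102683851 measured 4.32, 4.29 and 5.05 CPM in control libraries and 8.18, 8.18 and 7.74 CPM in VitC libraries. All VitC libraries lay above all control libraries (log2 change 0.82 ± 0.09 SE, adjusted p = 2.8e-10), and enrichment went from 2.88 to 5.88 fold over input. A Pvt1 peak that fell, at chromosome 7, 102750126 to 102751347, measured 14.0, 13.1 and 14.9 CPM in control libraries and 6.98, 7.71 and 6.89 CPM in VitC libraries (log2 change -0.95 ± 0.08 SE, adjusted p = 1.7e-14). Here, too, the groups did not overlap, so sites within 1 gene changed in opposite directions. The other Pvt1 peaks among the 4 of smallest p had log2 changes of 0.74 (start 102656890) and -1.05 (start 102739935). In RNA, Pvt1 measured 87.6, 76.8 and 87.5 CPM in control and 193, 89.1 and 88.5 CPM in VitC libraries (log2 change 0.54 ± 0.27 SE, adjusted p = 0.14), which did not pass the test. VitC replicate 1 was the high library, and without it the log2 change was 0.07.

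**Figure D2:**
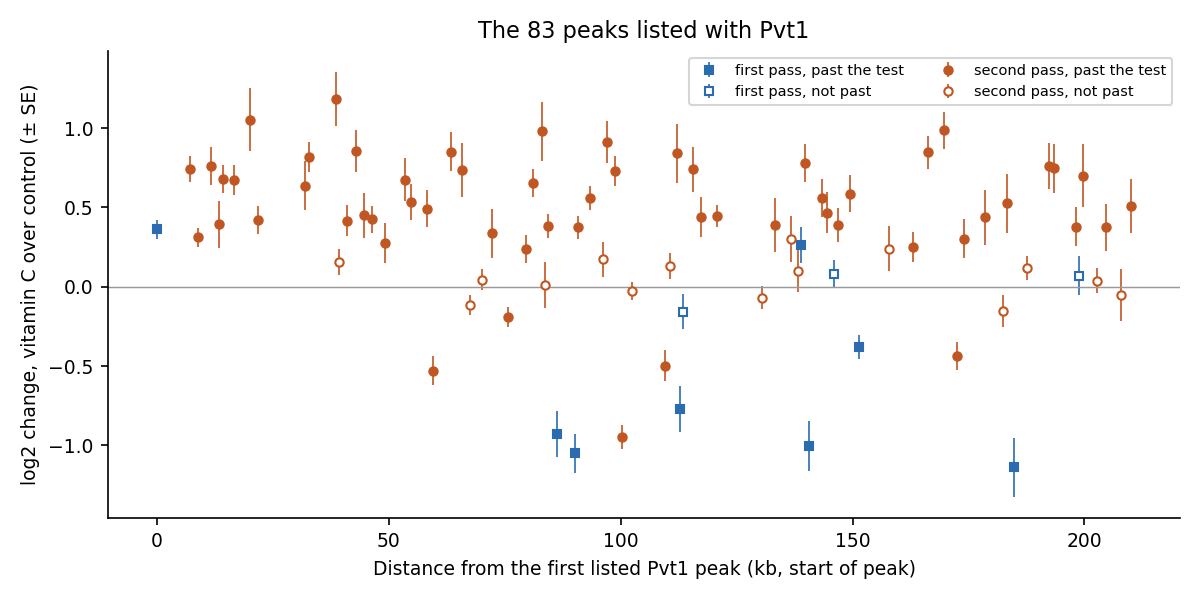
Log2 change in hMeDIP (VitC over control, vertical axis) of each of the 83 peaks of Pvt1 with its SE, by distance from the first listed peak (kb, horizontal axis). Colours mark the pass and filled symbols the calls; the 54 rises run along the whole gene, and the 11 falls lie among them in its middle and far part.

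A pair of lincRNAs combined many peaks with a large change in RNA. LOC102553018 (ENSRNOG00000057834, chromosome 2) measured 4.29, 3.86 and 2.88 CPM in control and 22.6, 21.6 and 18.7 CPM in VitC libraries in RNA. VitC libraries were well above control (log2 change 2.49 ± 0.14 SE, adjusted p = 6.0e-06). Of its 19 peaks, 8 rose and 7 fell. The peak of its start region at chromosome 2, 251536522 to 251537259, measured 2.90, 2.30 and 2.51 CPM in control libraries and 4.98, 4.33 and 5.09 CPM in VitC libraries (log2 change 0.91 ± 0.13 SE, adjusted p = 3.0e-08), although its change over input did not pass (adjusted p = 0.11). The peak nearer to the start, 251535031 to 251535935, had a log2 change of 0.26 ± 0.13 SE (adjusted p = 0.068), which missed the threshold. The RefSeq promoter of LOC102553018, 250 bases before to 50 after the start, is shown with each CG in capitals, the dinucleotide in which most 5hmC is found. It lies on the plus strand at chr2:237225471-237225770 of GRCr8.
LOC102553018: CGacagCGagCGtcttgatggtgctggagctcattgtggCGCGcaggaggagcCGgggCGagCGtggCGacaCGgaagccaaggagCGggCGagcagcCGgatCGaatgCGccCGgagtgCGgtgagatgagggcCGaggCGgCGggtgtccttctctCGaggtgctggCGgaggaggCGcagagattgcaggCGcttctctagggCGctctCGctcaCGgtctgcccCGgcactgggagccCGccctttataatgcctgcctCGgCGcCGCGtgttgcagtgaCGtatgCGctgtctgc

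It holds 35 CG, and 6.55% of 27457 RefSeq rat promoters of this length hold as many or more. The search for CG reads the same on both strands.

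LOC102551339 (ENSRNOG00000057440, chromosome 14) also rose in RNA, with 5.04, 4.81 and 4.08 CPM in control and 20.5, 13.9 and 13.0 CPM in VitC libraries (log2 change 1.74 ± 0.18 SE, adjusted p = 1.4e-04). Of its 18 peaks 9 rose and 4 fell. Its peak at the start site, chromosome 14, 32896836 to 32897356, went 1.55 to 7.30 fold over input (log2 change 1.29 ± 0.18 SE, adjusted p = 3.3e-08). Another, near the start of a shorter listed transcript of the gene at chromosome 14, 32868621 to 32869248, measured 1.58, 1.43 and 1.5 CPM in control libraries and 4.20, 4.80 and 3.75 CPM in VitC libraries (log2 change 1.52 ± 0.15 SE, adjusted p = 3.7e-12), and the groups were far apart. Its promoter, on the minus strand at chr14:30979198-30979497 of GRCr8, is poorer in CG.
LOC102551339: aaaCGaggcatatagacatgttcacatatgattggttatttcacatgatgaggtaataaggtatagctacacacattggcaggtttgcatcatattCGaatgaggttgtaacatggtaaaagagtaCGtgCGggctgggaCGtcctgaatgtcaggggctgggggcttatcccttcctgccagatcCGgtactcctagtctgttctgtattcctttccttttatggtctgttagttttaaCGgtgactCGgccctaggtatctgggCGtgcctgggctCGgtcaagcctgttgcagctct

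This promoter holds 10 CG, and 44.1% of RefSeq promoters hold as many or more. The median is 7 over all promoters and 5 over the 45 lincRNA and antisense genes with a peak that have one in RefSeq. The sources used here name no build for the peak list, so the peaks were not placed on these sequences.

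Other lincRNA peaks moved as strongly. AABR07034669.1 had the rise of smallest p in the class at chromosome 11, 83413744 to 83416584, with 5.98, 5.59 and 7.03 CPM in control libraries and 14.4, 14.4 and 14.0 CPM in VitC libraries (log2 change 1.20 ± 0.08 SE, adjusted p = 3.2e-17). AC125248.1 had the corresponding fall at chromosome 18, 29537073 to 29538182, with 17.1, 16.5 and 16.3 CPM in control libraries and 6.79, 7.56 and 6.55 CPM in VitC libraries (log2 change -1.23 ± 0.07 SE, adjusted p = 1.0e-18). Both peaks stand in the second pass. Naming a peak by the size of its change required a mean log2 CPM of 1 or more, which leaves out larger changes at fewer reads. LincRNA falls named in this way, all in the first pass, included AABR07028669.1 (-2.28), AABR07014205.1 (-2.14) and AABR07045510.1 (-1.93). In AABR07028669.1, enrichment went from 6.01 to 1.56 fold over input.

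Antisense genes, transcribed against another gene, had 52 peaks, 25 higher and 11 lower (48.1% and 21.2%, against 36.9% and 36.3% of all peaks). Of these 52 peaks 11.5% stood in the first pass, against 31.7% of all peaks. Coding transcripts enclose 67.3% of these peaks. An antisense gene inside Dnm3, which encodes the membrane fission protein dynamin 3, gained 5hmC at chromosome 13, 79925378 to 79926174: the levels were 1.84, 1.65 and 1.71 CPM in control libraries and 2.92, 3.66 and 4.43 CPM in VitC libraries (log2 change 1.1 ± 0.14 SE, adjusted p = 5.1e-09). One inside Mapt, which encodes the microtubule protein tau, lost it (-1.28, adjusted p = 2.3e-12).

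MicroRNA peaks were 42.1% higher and 30.5% lower (224 and 162 of 532, median 0.16). In the second pass 217 of 398 were higher and 54 lower (54.5% and 13.6%, against 52.6% and 12.8% of all peaks there). In the first 7 of 134 were higher and 108 lower (5.22% and 80.6%, against 2.89% and 87.1%). A smaller share of them stood in the first pass (25.2%) than of lincRNA peaks (32.8%). The 109 peaks of genes with a mature sequence in RefSeq held 57 rises and 22 falls (52.3% and 20.2%, median 0.28), with 20.2% in the first pass.

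Mir193a and Mir365b, both on chromosome 10, had rises at most of their peaks. Mir193a at chromosome 10, 67067930 to 67069952 measured 4.85, 4.68 and 5.11 CPM in control libraries and 10.7, 10.9 and 11.0 CPM in VitC libraries, a change from 4.83 ± 0.213 to 10.9 ± 0.0475 CPM (SD, n = 2). All VitC libraries were above every control library (log2 change 1.16 ± 0.09 SE, adjusted p = 1.5e-15), and enrichment went from 1.96 to 5.54 fold over input. Its second peak also rose (0.66). Of the 3 peaks of Mir365b, whose product shares a primary transcript with miR-193 in mammals, the outer ones rose (0.96 and 0.91) and the middle one did not pass (-0.16, adjusted p = 0.20). Mir193b, a paralogue of Mir193 (the gene on the strand opposite Mir193a), had a rise of 0.59 at 1 peak and 0.00 at the other, which did not pass. The peak list places Mir193b on chromosome 14 and RefSeq (GRCr8) places the gene of that symbol on chromosome 10, so its match to the mature sequence is uncertain. The other 82 matched microRNA genes have the same chromosome in both.

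Of 15 peaks at microRNAs listed for glia and nerve injury, 9 rose and 4 fell, beside 36.9% and 36.3% of all peaks. The shares of all peaks were 2.89% and 87.1% in the first pass and 52.6% and 12.8% in the second. The 15 peaks were not split by pass. Mir34a, a target of p53, had its peak next to the hairpin at chromosome 5, 167090435 to 167093032 with 7.63, 7.06 and 7.34 CPM in control libraries and 10.9, 11.5 and 10.9 CPM in VitC libraries (log2 change 0.61 ± 0.08 SE, adjusted p = 3.3e-09). The peak upstream of it had a log2 change of -0.36, which turned to 0.11 with scaling by all counted reads. Mir24-2 rose by 0.58 and Mir23b by 0.54, 2 members of the miR-23, miR-27 and miR-24 clusters. Mir96, known from sensory hair cells, rose by 0.87. Mir204, inside Trpm3, rose at both of its peaks (0.70 and 0.60), Mir30d by 0.49 and Mir155, a regulator of inflammation, by 0.32. These last 4 peaks, Mir138-2, Mir10a and a Mir196a peak were no longer called with DESeq2. Mir140, inside Wwp2, had a log2 change of 0.04 ± 0.07 SE (adjusted p = 0.67).

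The falls of the glial list were at Mir138-1, Mir124-1, Mir212 and the upstream peak of Mir34a. Mir138-1, whose product has been studied in Schwann cell differentiation, measured 6.24, 6.58 and 5.50 CPM in control libraries and 2.61, 2.59 and 2.85 CPM in VitC libraries at chromosome 8, 131730720 to 131731629 (log2 change -1.17 ± 0.11 SE, adjusted p = 4.6e-12). The same mature product comes from Mir138-2, where the peak at the hairpin rose by 0.31 and the one beside it had -0.03, not called. Mir124-1, a neuronal microRNA, had -0.71 and Mir212 -0.60. Neither of these falls was called with scaling by all counted reads.

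The microRNAs inside the Hox clusters, which keep positional identity, had 6 peaks, 5 of them higher, beside 36.9% of all peaks. Of all peaks in the first pass 2.89% were higher, and of those in the second 52.6%. The 6 peaks were not split by pass. Mir615 measured 6.81, 6.76 and 7.25 CPM in control libraries and 10, 10.4 and 9.47 CPM in VitC libraries (log2 change 0.54 ± 0.08 SE, adjusted p = 1.3e-07). Mir196a had 2 rises (0.56 and 0.43), Mir10b rose by 0.76 and Mir10a by 0.39, while the second peak of Mir10a had a log2 change of 0.11 ± 0.07 SE (adjusted p = 0.14). Mir10a was called with all libraries but not without control replicate 1, control replicate 3 or VitC replicate 2 (adjusted p of up to 0.085).

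Peaks in the imprinted Dlk1-Dio3 cluster on chromosome 6, which holds many maternally expressed microRNAs, went both ways. Of 6 listed peaks, Mir381 rose (0.86) and 3 fell, namely Mir493 (-1.12), Mir673 (-0.78) and Mir770 (-0.98). Mir493 measured 3.80, 4.03 and 3.55 CPM in control libraries and 1.72, 1.59 and 1.87 CPM in VitC libraries, without overlap. The 3 falls stand in the first pass and the rise in the second. Mir370 (-0.10, adjusted p = 0.44) and Mir541 (0.19, adjusted p = 0.084) were not called. Mirlet7b, of the let-7 family, rose by 0.33. Listed imprinted long noncoding RNAs, muscle microRNAs and snoRNA hosts had 0 peaks under these symbols.

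Among the other microRNA genes, some of the largest changes lay within introns of host genes. Mir107, inside Pank1 (a kinase of coenzyme A synthesis), measured 1.02, 1.17 and 1.13 CPM in control libraries and 2.56, 2.44 and 2.56 CPM in VitC libraries (log2 change 1.19 ± 0.18 SE, adjusted p = 8.6e-08). Mir148b, inside Copz1 of the vesicle coat, rose by 0.92, and Mir152, which has the same seed and lies in Copz2, had 0.12, not called. Mir128-1, inside R3hdm1, rose by 0.94, and of 3 Mir128-2 peaks, inside Arpp21, 1 rose (0.35). Mir3065, on the strand opposite Mir338 within Aatk, had rises of 1.27 and 0.57. Mir22 rose by 0.73 and Mir100 by 0.52. Mir3596a, the gene opposite let-7a, rose by 1.52 at its hairpin. Its upstream peak had -0.37, which became 0.056 with scaling by all counted reads.

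The largest microRNA fall was at Mir3568, inside Mgrn1, a ubiquitin ligase gene. The peak at chromosome 10, 10855038 to 10855899 measured 5.64, 4.81 and 4.43 CPM in control libraries and 0.807, 0.821 and 0.730 CPM in VitC libraries (log2 change -2.63 ± 0.16 SE, adjusted p = 1.8e-18). Enrichment went from 3.45 to 0.803 fold over input, below the input level. Mir455, inside the collagen gene Col27a1, fell by 1.64 on the log2 scale and Mir218-2, inside the axon guidance gene Slit3, by 1.21. Both were first-pass peaks. Mir3582 and Mir3571, opposite the muscle microRNAs Mir133a1 and Mir1 within Mib1, had log2 changes of -1.19 and -0.36 at the first and 0.43 at the second gene (adjusted p = 0.041).

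**Figure D3:**
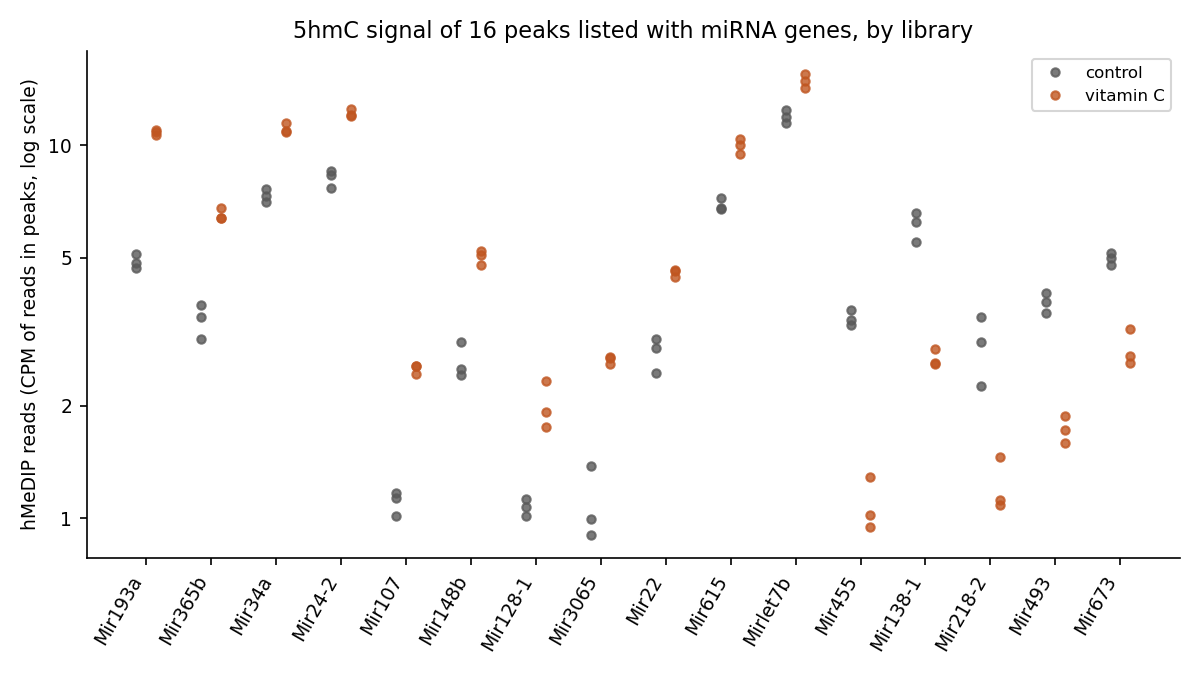
hMeDIP level (CPM of reads in peaks, log axis) in each of 3 control and 3 VitC libraries at named microRNA peaks, 1 peak per gene, the one of smallest p. From Mir193a to Mirlet7b the VitC libraries lie above the control libraries, and from Mir455 to Mir673 below them. The genes were chosen with their values in view and ordered by direction, so this order is not a result. Peaks not shown include one of Mir34a and one of Mir365b that did not rise.

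The short RNA classes had 1703 peaks, of which 21.0% overlapped the RNA gene itself and 44.3% lay within a coding transcript. Those within coding transcripts were 44.6% higher and 27.5% lower, those elsewhere 31.9% and 36.7%, and the 358 that overlapped the RNA gene 48.6% and 25.1%. Beside them, peaks of protein-coding genes were 44.7% higher and 28.1% lower, and peaks without a gene 29.5% and 43.7%. Differences between these sets were not tested. Repeated RNA families are named for many loci, and their counts below stand beside 36.9% higher and 36.3% lower over all peaks. U6, the spliceosomal RNA with the catalytic role, had 276 peaks at 215 genes on 20 chromosomes, 89 higher and 97 lower. Of 83 U6 peaks in the first pass 3 were higher and 70 lower (3.61% and 84.3%, against 2.89% and 87.1% of all peaks there). Of 193 in the second, 86 were higher and 27 lower (44.6% and 14.0%, against 52.6% and 12.8%). SNORA17, a guide of pseudouridylation, had 160 peaks (49 higher, 70 lower) and 7SK, which holds the elongation factor P-TEFb inactive, had 135 (45 and 50). The 5S rRNA family had 113 (42 and 38), U1 of the spliceosome 76 (24 and 25) and U2 27 (13 and 8). SNORA36, with 10 peaks at 6 genes, had 7 rises and 0 falls, all in the second pass, where 52.6% of all peaks were higher and 12.8% lower. Such families include near-identical copies, so reads may be split between loci and values here are uncertain.

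Among the named rises was a SNORA17 peak at chromosome 14, 32745808 to 32746400, with 0.752, 0.779 and 1.19 CPM in control libraries and 2.92, 2.66 and 2.90 CPM in VitC libraries (log2 change 1.60 ± 0.18 SE, adjusted p = 1.9e-10). A SNORD113 gene inside Gldn, which encodes the nodal protein gliomedin that Schwann cells make, measured 3.53, 3.46 and 2.81 CPM in control libraries and 7.54, 6.79 and 7.77 CPM in VitC libraries (log2 change 1.19 ± 0.11 SE, adjusted p = 4.7e-13). SNORA42 inside the laminin receptor gene Itga6 rose by 1.46, SNORA22 by 1.43 and a U6 peak on chromosome 1 by 1.42. Among 7SK peaks, one inside Mcfd2 rose by 1.38, one inside Prex1 by 0.82 and one inside Irak3 had -0.98. A SNORA17 peak inside Elmo1 fell by 2.06 on the log2 scale. 5S rRNA peaks ranged in the named pair from -1.34 to 0.71, and the named U1 peak had -1.15.

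Pseudogene labels of all 4 kinds covered 423 peaks, 36.6% higher and 35.0% lower. AABR07051947.1 had the rise of smallest p at chromosome 3, 29861518 to 29864164, with 9.74, 11.1 and 11.3 CPM in control libraries and 18.8, 19.1 and 19.1 CPM in VitC libraries (log2 change 0.84 ± 0.06 SE, adjusted p = 5.8e-15). Its RNA rose as well, with 32.6, 15.5 and 9.21 CPM in control and 67.7, 61.6 and 53.0 CPM in VitC libraries (log2 change 1.65 ± 0.36 SE, adjusted p = 0.0073), and the control libraries spread widely. AABR07034328.1 fell by 1.18 on the log2 scale, the processed pseudogene AC123095.2 by 1.21 and the unprocessed pseudogene RGD1562652 by 1.08. Rn50_14_0866.3 rose by 1.01 and Rn50_7_1412.3, within Krt5, by 0.76.

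Some labels do not match RefSeq. By symbol, 63 of the 3182 genes, with 713 of the 6746 peaks, are protein-coding in RefSeq (GRCr8), among them 43 of 56 processed_transcript genes, with 688 of 806 peaks. Sdk1 (86 peaks, 29 higher and 32 lower), Arid5b (57, 43 and 2), Syne1 (57, 26 and 16) and Syne2 (52, 26 and 6) are such genes. The processed_transcript class as a whole was 38.5% higher and 32.1% lower, and its peaks included Rc3h1 (1.48), Syne2 (1.47), Trrap (1.4) and Eif4e1b (-2.20). Pou3f1, listed as a pseudogene, is the POU factor that promyelinating Schwann cells express. Its single peak measured 9.85, 10.7 and 9.91 CPM in control libraries and 7.15, 7.29 and 6.67 CPM in VitC libraries (log2 change -0.51 ± 0.08 SE, adjusted p = 2.3e-07), a fall that was not called with scaling by all counted reads. Its change over input did not pass either (log2 change -0.31, adjusted p = 0.20), and enrichment went from 7.88 to 8.50 fold over input. In RNA, Pou3f1 measured 11.2, 11.8 and 11.4 CPM in control and 6.54, 6.76 and 6.57 CPM in VitC libraries (log2 change -0.81 ± 0.08 SE, adjusted p = 1.2e-04), and the groups did not overlap.

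RNA was low at most of these genes. Of 3182, 1839 had 0 reads in every RNA library, and 284 passed the expression filter. Of the 284, 57 were higher and 26 lower with VitC (20.1% and 9.15%), against 19.1% and 21.0% of all genes tested. A gene could pass the filter through the group in which it was high, so these counts describe only the genes that passed. The labels name removal of ribosomal RNA and no small RNA library, so a count at a microRNA or snoRNA gene is not the level of its mature product. Among lincRNAs, 36 were higher and 7 lower of 122 tested. Of processed_transcript genes 10 were higher and 3 lower of 33, and of pseudogenes 7 and 11 of 56. Without the genes that RefSeq calls protein-coding, 48 were higher and 20 lower of 245, an alternative chosen after seeing the data. Without VitC replicate 1, 58 were higher and 26 lower, of which 50 and 21 were among the genes called with all libraries. Without control replicate 2, 38 were higher and 14 lower.

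AABR07068127.1, a pseudogene label, was among the most abundant risers, with 141, 121 and 130 CPM in control and 350, 272 and 279 CPM in VitC libraries in RNA (log2 change 1.19 ± 0.10 SE, adjusted p = 5.3e-05). Syne1, the nesprin that ties the nucleus to the cytoskeleton, had a log2 change of 1.0 ± 0.09 SE (adjusted p = 7.4e-05). Rn60_1_0436.1, an antisense gene, had a log2 change of 1.76 ± 0.14 SE (adjusted p = 3.5e-05), and Rn60_15_0518.2 a log2 change of 1.78 ± 0.39 SE (adjusted p = 0.007). Palld, which encodes the actin-binding protein palladin, rose by 1.5. The lincRNA Rn50_13_0828.1 fell with little spread, at 19.7, 20.7 and 19.3 CPM in control and 8.09, 8.24 and 8.08 CPM in VitC libraries (log2 change -1.30 ± 0.07 SE, adjusted p = 5.6e-06). AABR07068285.2 had a log2 change of -1.61 ± 0.10 SE (adjusted p = 9.4e-06) and AC119015.2 a log2 change of -1.06 ± 0.19 SE (adjusted p = 0.0024). Sv2b (-0.90) of synaptic vesicles and Astn1 (-0.99) of neuronal migration also fell. The Sv2b call was lost with DESeq2 (adjusted p = 0.060) and without control replicate 2 (0.064) or 3 (0.051). The Astn1 call was lost without control replicate 2 (0.088), control replicate 3 (0.071) or VitC replicate 3 (0.055). The largest RNA change that passed was at AABR07018183.1, a lincRNA of low level named after its values were seen, with 0.0720, 0.327 and 0.125 CPM in control and 1.63, 1.45 and 1.93 CPM in VitC libraries (log2 change 3.13 ± 0.38 SE, adjusted p = 3.5e-04).

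Of 12 microRNA genes tested in RNA, 3 rose and 0 fell. Mir675, which is processed from the first exon of H19, measured 2.77, 4.27 and 3.13 CPM in control and 8.33, 7.88 and 9.31 CPM in VitC libraries (log2 change 1.30 ± 0.16 SE, adjusted p = 3.5e-04), while its peak had a log2 change of 0.10 ± 0.13 SE (adjusted p = 0.50) in hMeDIP. Mir24-2 rose by 0.99 (adjusted p = 0.02), with a rise in 5hmC too. This RNA call was lost without control replicate 2 (0.069), control replicate 3 (0.064) or VitC replicate 2 (0.070). Mir23b had an adjusted p = 0.055 and Mirlet7b a log2 change of -0.33 ± 0.26 SE (adjusted p = 0.34), neither called.

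Peaks of the 57 genes whose RNA rose were 49.6% higher and 20.2% lower (554 peaks), those of the 26 genes whose RNA fell 37.5% and 39.3% (112 peaks), and those of the 201 not called 42.3% and 29.4% (950 peaks). Of the peaks at risers 18.2% stood in the first pass, against 34.8% at genes that fell. A difference between these sets was not tested.

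**Figure D4:**
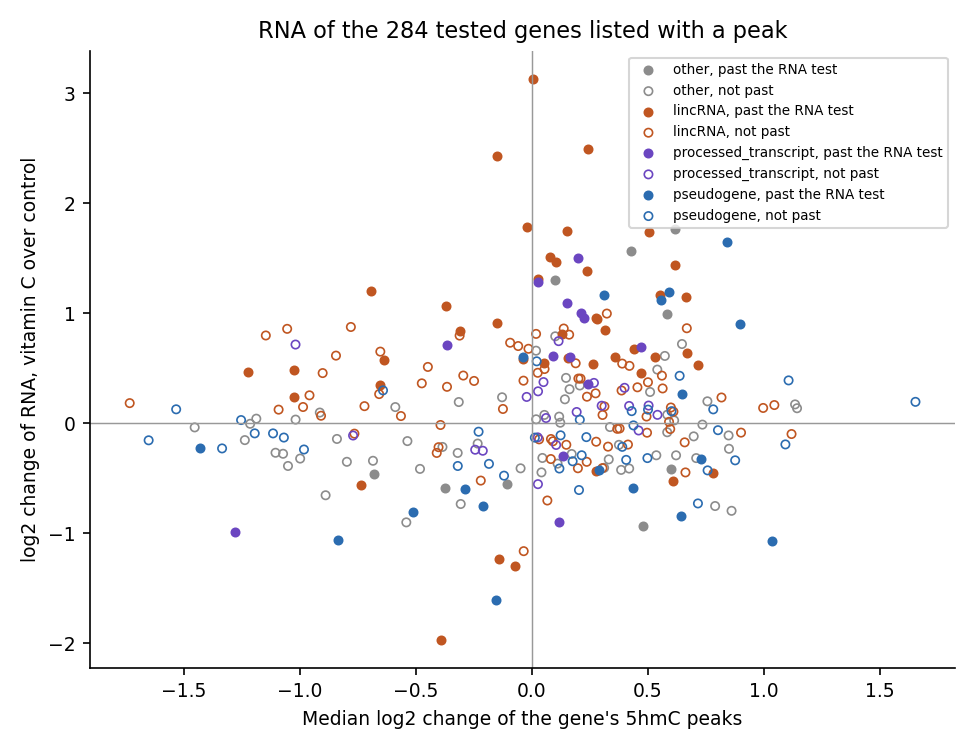
Log2 change in RNA (vertical axis) against the median log2 change in hMeDIP over the peaks of the gene (horizontal axis) for the 284 genes tested in RNA, coloured by biotype, with RNA calls filled. Genes with higher RNA (57) and lower RNA (26) are spread on both sides of 0 in hMeDIP.

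Markers of Schwann cells were abundant in RNA, and 8 of 8 were found. Their summed level was 11732 to 12134 CPM over the control libraries and 11567 to 12185 CPM over the VitC libraries, with 2 markers higher and 2 lower. Markers of other cell types were lower in sum, but several lists differed between the groups without overlap. Fibroblast markers summed to 4538 to 4688 CPM in control and 9268 to 10910 CPM in VitC libraries. Nearly all of this sum was Col1a1, which rose, while the other 3 tested fell and Dcn was at 0. Pericyte and smooth muscle markers, with 3 of 3 tested higher, went from 73.2 to 76.6 CPM in control to 191 to 216 CPM in VitC libraries. The 3 tested were Tagln, Des and Pdgfrb. Rgs5, Cnn1, Acta2 and Notch3 of the same list had at most 10 reads in any library and were not tested. Skeletal muscle markers, 3 of 3 higher, stood at 106 to 156 and 454 to 471 CPM. Perineurium markers, 2 higher and 2 lower of 4 tested, stood at 205 to 236 and 438 to 457 CPM. Neuronal markers, 1 higher and 2 lower of 3, stood at 901 to 977 and 791 to 880 CPM. Most of this sum was Gap43, with a mean of 867 CPM in control and 770 CPM in VitC libraries. Snap25 and Rbfox3 had at most 3 reads in any library. Endothelial markers reached 4.26 CPM at most, with Cdh5 at 0, and macrophage markers 1.63 CPM. Fewer cells of a type and less RNA per cell cannot be told apart in bulk libraries, and the part of these markers in the RNA changes above was not tested.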

How the data were processed

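For hMeDIP and input the authors deposited raw read counts per peak, with a peak list, and for RNA read counts per gene. Per the submitters' processing notes, STAR, BWA, HTSeq, Trim Galore and CASAVA 1.4 were used. The sources used here name no peak caller, genome build or strand setting. Overlapping and antisense genes therefore cannot be told apart in RNA.

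Counts were tested with edgeR 4.0.16 (R 4.3.3): quasi-likelihood F test, TMM factors, filterByExpr at its defaults and Benjamini-Hochberg adjustment, threshold 0.05, with treatment as the only term. The hMeDIP fit covered all peaks and the RNA fit all genes. Entries naming no gene were left out. The hMeDIP libraries of a group were to be summed where chi-square per degree of freedom was at most 1.1 and another pair of the group was above it. Replicates 1 and 3 met this in control cells. In VitC cells all 3 pairs were at or below 1.1 (1.09, 0.896 and 1.08), and the same pair was summed for a matching design. The test over input added a term per sample, with inputs summed alike. Input alone was tested as 3 against 3. Fold over input used a pseudocount of 0.5 read in input.

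Named peaks were the 10 largest called changes in each direction among those with a symbol, an average log2 CPM of at least 1 and groups that do not overlap, the smallest p in each direction per biotype, and up to 4 per list. For RNA they were the 5 largest called changes each way at an average log2 CPM of at least 0, up to 4 genes per list, and the 8 genes of smallest p with a called peak. Other members were described for their sequence, host or number of peaks, a choice made with their values in view. Members and lists were chosen with earlier results of these data known. The steps were tested on simulated data. DESeq2 1.42.0, other scalings, no filter, a replicate block and leaving out each library were alternatives. Tables and figures were made with Python 3.11.15, matplotlib 3.10.9, pandas 2.3.3 and numpy 2.4.6.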

Additional observations from a re-analysis of the deposited data

How the results depend on the processing

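Under the alternatives run, the first-pass falls and the changes over input kept within 1.5 times their counts. The test over input was not run with DESeq2, scaling by all counted reads, a replicate block or only the control pair summed. Its counts under those settings, 2 of which moved the hMeDIP counts most, are therefore not known. The 2397 higher noncoding peaks became 1272 with DESeq2, all of them among the 2397, and 4080 with scaling by all counted reads. The 2332 higher peaks of the second pass became 1252 and 3858, and the 2405 lower peaks 1532 with that scaling. In RNA, the 26 lower genes became 17 with DESeq2, all among the 26. Leaving out 1 library at a time gave 2060 to 2362 higher and 2251 to 2448 lower peaks, 2016 to 2297 higher in the second pass, 1754 to 1807 lower in the first, 1041 to 1508 higher and 1533 to 1755 lower over input, and 38 to 66 higher and 14 to 27 lower genes in RNA, the low end of both RNA counts without control replicate 2. Leaving out replicate 2 of an hMeDIP group leaves 1 summed sample there, assumed to vary like the other group. With scaling by all counted reads the sign turned at 5 named peaks: Mir34a upstream (0.11), Mir3596a upstream (0.056), Mir138-2 (0.40), Mir370 (0.33) and Mir128-2 (0.31). The same scaling moved the median log2 change of all peaks from 0.05 to 0.49. The cause of that shift was not tested. Deviations from the group mean correlated between same-numbered libraries at -0.03, -0.20 and -0.11 in hMeDIP and at 0.25, 0.13 and 0.03 in RNA. Between RNA libraries of different number the correlations ran from -0.24 to 0.22. The deviations within a group of 3 are tied to each other, so this check cannot decide whether the numbers pair libraries. A fit with the replicate block gave 2236 higher and 2328 lower peaks. With every library as its own replicate there were 2451 and 2515, and with only the control pair summed, chosen after seeing the data, 2384 and 2508. Of 1218 alternative values of the 87 called named peaks, 1201 kept the call and 15 lost it in the same direction, 7 with DESeq2. The other 2, at the upstream peaks of Mir34a and Mir3596a, turned in sign with scaling by all counted reads and were not called. Of 165 such values of the 15 called named genes in RNA, 9 lost the call, at Astn1, Mir24-2 and Sv2b. Depth limits the precision of single peaks: the SE was 0.18 at Mir107, a peak of low level, and 0.06 at the AABR07051947.1 peak, one of high level.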
